A study of Homo sapiens with 2 samples.

Results

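Peaks of JARID2 that lay upstream of a gene's transcription start site (TSS), within the 3 kb that the authors' annotation calls a promoter, are described here. Members were the peaks whose annotation was of the promoter class and whose listed distance to the TSS was negative. The rule took 5056 of the 67071 listed peaks (7.54%, 95% exact interval 7.34 to 7.74) and 36.7% of the promoter peaks. The remaining promoter peaks were 3668 that overlapped a TSS and 5040 that lay downstream of one. Chromatin came from untreated MDA-MB-231 cells, an established human line of triple-negative breast cancer. There was 1 library precipitated with a polyclonal antibody raised to JARID2 and 1 input library made with no antibody. The results rest on the authors' peak list of the ChIP library, on hg19. Values of the input library were not used here. With 1 library there was no replicate, so no comparison below carries a test, and every interval covers counting error only.

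JARID2 is an accessory subunit of Polycomb repressive complex 2 (PRC2), the complex that methylates histone H3 at silent developmental genes. It binds DNA and nucleosomes and helps to bring the complex to GC-rich, CpG-rich promoters in embryonic stem cells. The stretch just before a TSS is usually free of a positioned nucleosome at active genes and holds binding sites for general promoter factors such as SP1 and NF-Y.

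The promoters behind the strongest peaks closest to a TSS are shown first, because the results below turn on their CpG content, which varied widely among them. The windows are the 250 bases before the start, from RefSeq on GRCh38.p14, each on the plus strand and written 5′ to 3′, with every CpG in capitals. They belong to the 6 genes of largest fold enrichment among those with a peak at a false discovery rate (FDR) of at most 5%, within 250 bp of the TSS, and with 1 window in the table. A RefSeq start need not be the start that the authors' annotation used on hg19. CDK5R1 encodes the activator of the neuronal kinase CDK5, FOXK2 a forkhead transcription factor, LRRC8B a subunit of volume-regulated anion channels and INTS3 a subunit of the Integrator complex. The windows lie at chr17:32486743-32486992 for CDK5R1, chr13:94601607-94601856 for GPR180, chr17:82519482-82519731 for FOXK2, chr2:11155217-11155466 for PQLC3 (SLC66A3 in RefSeq), chr1:89524579-89524828 for LRRC8B and chr1:153727800-153728049 for INTS3.
CDK5R1: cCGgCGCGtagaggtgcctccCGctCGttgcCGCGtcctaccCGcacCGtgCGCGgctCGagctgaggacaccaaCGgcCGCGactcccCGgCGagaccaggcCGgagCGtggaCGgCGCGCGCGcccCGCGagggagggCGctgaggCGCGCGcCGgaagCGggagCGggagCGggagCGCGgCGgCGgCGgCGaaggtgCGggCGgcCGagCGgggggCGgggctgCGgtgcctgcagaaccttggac
GPR180: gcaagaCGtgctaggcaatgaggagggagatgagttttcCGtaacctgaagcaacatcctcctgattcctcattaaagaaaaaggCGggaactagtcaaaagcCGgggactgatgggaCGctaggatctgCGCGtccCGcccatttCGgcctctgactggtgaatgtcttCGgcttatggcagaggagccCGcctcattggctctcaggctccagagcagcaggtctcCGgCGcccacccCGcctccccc
FOXK2: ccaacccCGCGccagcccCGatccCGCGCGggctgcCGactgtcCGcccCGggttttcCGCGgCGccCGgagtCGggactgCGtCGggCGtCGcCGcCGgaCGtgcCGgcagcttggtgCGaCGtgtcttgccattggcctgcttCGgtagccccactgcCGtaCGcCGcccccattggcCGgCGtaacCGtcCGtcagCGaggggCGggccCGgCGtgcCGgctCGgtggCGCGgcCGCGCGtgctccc
PQLC3: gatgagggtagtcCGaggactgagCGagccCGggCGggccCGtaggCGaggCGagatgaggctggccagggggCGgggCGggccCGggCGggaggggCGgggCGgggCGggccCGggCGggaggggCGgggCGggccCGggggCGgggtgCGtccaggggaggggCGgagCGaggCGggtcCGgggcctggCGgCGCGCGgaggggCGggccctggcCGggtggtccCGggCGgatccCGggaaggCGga
LRRC8B: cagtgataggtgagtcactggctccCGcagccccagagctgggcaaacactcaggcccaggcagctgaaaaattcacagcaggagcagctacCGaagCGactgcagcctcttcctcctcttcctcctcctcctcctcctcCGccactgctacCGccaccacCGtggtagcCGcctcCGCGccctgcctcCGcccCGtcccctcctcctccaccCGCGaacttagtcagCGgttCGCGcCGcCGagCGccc
INTS3: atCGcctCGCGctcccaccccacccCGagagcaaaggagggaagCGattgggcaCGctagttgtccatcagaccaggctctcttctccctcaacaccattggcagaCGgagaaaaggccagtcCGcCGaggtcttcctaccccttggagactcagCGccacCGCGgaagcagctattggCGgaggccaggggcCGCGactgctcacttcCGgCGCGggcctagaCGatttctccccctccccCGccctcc
CDK5R1 held 46 CpG dinucleotides in its 250 bases, FOXK2 43, PQLC3 35, INTS3 20, LRRC8B 19 and GPR180 14. The median over 15840 protein-coding promoters was 17, with quartiles of 6 and 26, so that INTS3, LRRC8B and GPR180 lay within the usual range. All 6 windows held GGGCGG, the core of an SP1 site, on 1 strand or the other, as did 56.0% of all windows. A match of letters is a description and not a bound site.

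The members were mostly weak peaks, as was the list. Tags (ChIP reads under a peak) ranged from 9 to 252 per member with a median of 13, for which the exact Poisson interval is 6.92 to 22.2. The authors' fold enrichment over background had a median of 5.92, with quartiles of 5.2 and 6.85 and a range of 2.91 to 113.02. Over all peaks the median was 5.95. The median FDR given by the authors was 44.17%, and 3491 members (69.0%) had an FDR above 40%. Members were 514 bp wide at the median and covered 2.88 Mb. An FDR of at most 5%, called strong here, was reached by 77 members (1.52%, 1.20 to 1.90), against 1.24% of all peaks. The share was 12.4% (11.3 to 13.5) for peaks overlapping a TSS, 1.19% (0.910 to 1.53) downstream of one, 0.325% in introns and 0.468% in distal intergenic sequence. The upstream share thus lay above those of introns and distal sequence and below that of peaks on a TSS, with intervals that do not overlap. Of the 834 strong peaks in the list, 453 overlapped a TSS. None of these differences was tested.

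Among upstream peaks, the strong ones lay close to the gene. Distance is given from the TSS to the nearest edge of the peak. Of 773 members within 250 bp, 34 were strong (4.40%, 3.06 to 6.09). The next 250 bp held 17 of 615 (2.76%, 1.62 to 4.39), and the 250 bp after those held 8 of 517 (1.55%). From 750 to 1000 bp 2 of 473 were strong (0.423%), between 1 and 2 kb 11 of 1656 (0.664%) and between 2 and 3 kb 5 of 1022 (0.489%). Single bands of 250 bp beyond 750 bp ranged from 0.270% to 1.17%. Median fold enrichment hardly moved over the same bands, from 6.06 within 250 bp to 5.95 between 2 and 3 kb.

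**Figure D1:**
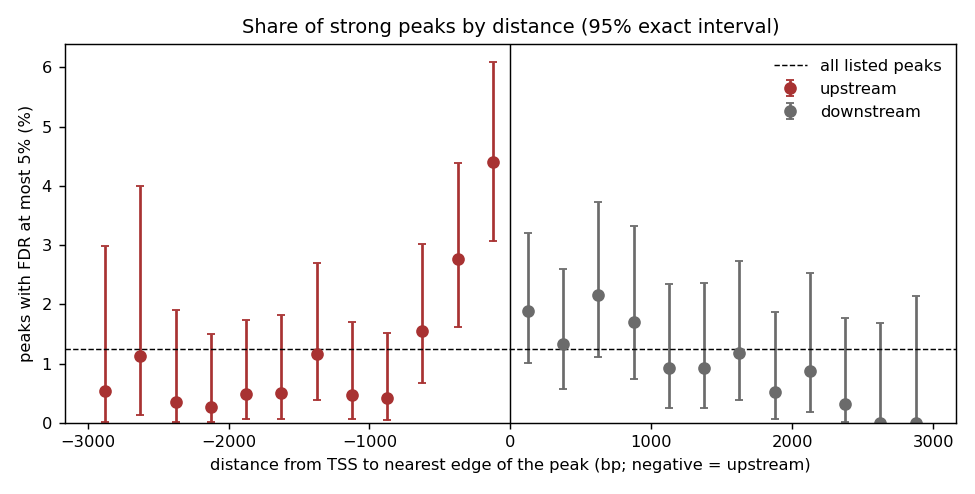
Share of peaks (%) with an FDR of at most 5% against the distance (bp) from the TSS to the nearest peak edge, in bands of 250 bp, negative values being upstream. Points are shares, bars are exact 95% intervals for counting error, and the dashed line is the share over all listed peaks, 1.24%. The upstream point next to the TSS is the highest at 4.40%.

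The 2 sides of the TSS held nearly equal numbers of peaks but not of strong ones near the start. Overall there were 5056 upstream against 5040 downstream peaks, an upstream share of 50.1% (49.1 to 51.1). Within 250 bp the counts were 773 and 690. Strong peaks in that band numbered 34 upstream and 13 downstream, an upstream share of 72.3% (57.4 to 84.4). Over the whole 3 kb the strong counts were 77 and 60 (56.2% upstream, 47.5 to 64.7), and the bands beyond 500 bp had 26 and 39. Peaks that touched the TSS are in neither count, and strong peaks were wide, with a median of 797 bp upstream.

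**Figure D2:**
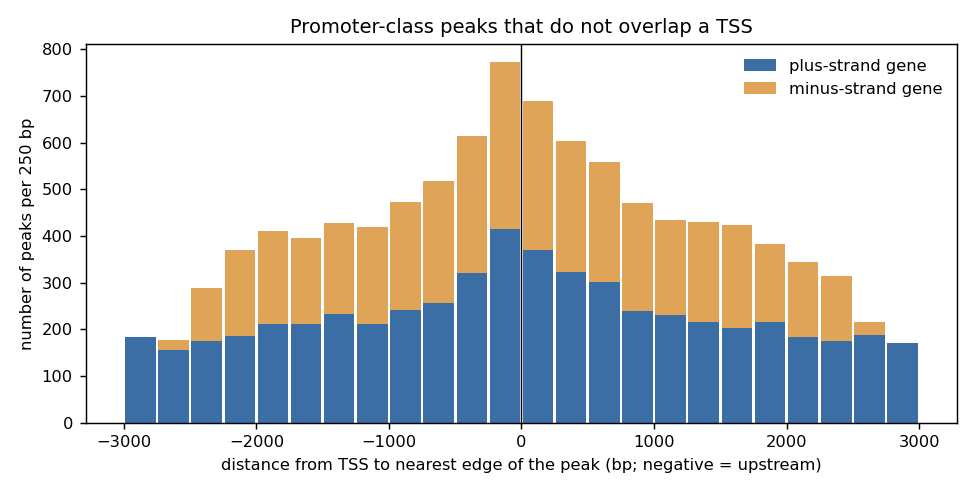
Number of promoter peaks that do not overlap a TSS, per 250 bp of distance from the TSS to the nearest peak edge (bp, negative upstream), stacked by the strand of the gene. Counts are highest next to the TSS, 773 upstream and 690 downstream, and minus-strand genes have no peak in the outermost bands.

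Position has to be read with the strand of the gene. At the 2806 plus-strand members the listed distance was that of the nearest edge in every case. At the 2250 minus-strand members it ran to the far edge in every case, a median of 511 bp farther. The median listed distance was 1206 bp on the plus strand and 1556.5 bp on the minus strand, but by the nearest edge it was 1206 and 974 bp. By the nearest edge 47.0% of members lay within 1 kb, and by the listed distance 35.2%. Of the members listed beyond 1 kb, 598 lay within it by the nearest edge, 14 of them strong. The same convention left 366 minus-strand peaks with a near edge within 3 kb upstream outside the promoter class, 192 annotated as intronic and 122 as distal intergenic. Strong among those were 7, named for EZH2 (16.54-fold), AL669914.1 (15.52), MEF2D (11.52), SNORD18 (10.51), CDC20B (8.4), MECOM (7.95) and LINC00686 (4.85). MEF2D and MECOM encode transcription factors. The share of strong peaks was 1.46% at plus-strand and 1.60% at minus-strand members. At the 3 kb limit of the rule, the 355 members listed beyond 2750 bp had a median fold enrichment of 5.96, and the 329 other peaks listed between 3000 and 3250 bp had 5.82.

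**Figure D3:**
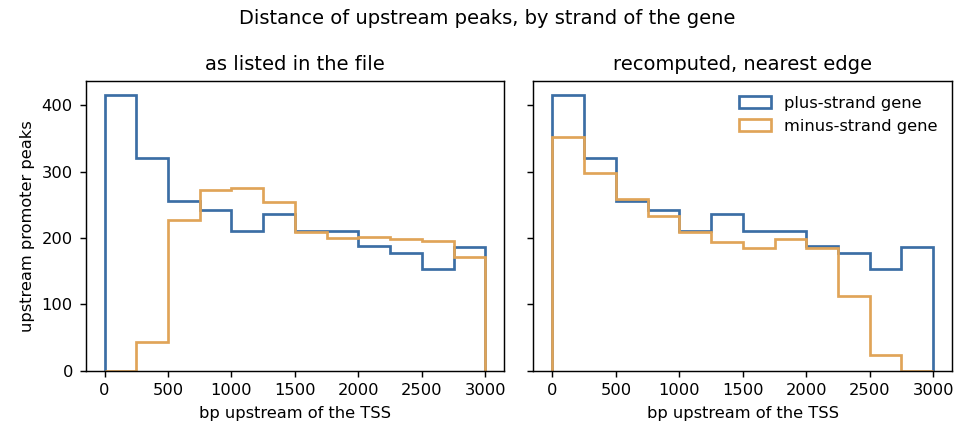
Number of upstream promoter peaks per 250 bp of distance upstream of the TSS (bp), for plus-strand and minus-strand genes, as listed in the file (left) and by the nearest edge (right). As listed, minus-strand genes have almost no peak in the first 250 bp, and by the nearest edge the 2 strands have like shapes up to about 2250 bp.

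The 3 highest members sat inside EZH2 and KDM1A, both genes of chromatin enzymes, 1499 to 2607 bp before the starts they were assigned to. TOPBP1 had 2 more strong members. The largest fold enrichment was 113.02 with 252 tags (chr7:148514765-148515497), 2607 bp before RNU7-20P, a U7 pseudogene within EZH2. EZH2, which encodes the catalytic subunit of PRC2, had 64.5 with 149 tags (chr7:148510789-148511833), 1874 bp from an internal start. Its peak overlapping a TSS had only 9.74 and an FDR of 16.64%. KDM1A, which encodes a histone lysine demethylase, had members of 47.01 (87 tags, chr1:23405407-23405867, 1499 bp) and 20.31 (34 tags, 422 bp), beside a TSS peak of 77.61. TOPBP1, a scaffold of the replication checkpoint, had 18.19 (28 tags, chr3:133338951-133339315, 2581 bp) and 12.90 (29 tags, 366 bp), beside a TSS peak of 18.53. Strong peaks crowded these genes. EZH2 held 7 strong peaks of 11 over its listed span, 5 of them annotated to exons or UTRs. KDM1A held 8 of 12 and TOPBP1 8 of 18, with 2 and 3 of those strong peaks annotated to exons or UTRs. The 3 genes had only 2 intronic peaks, 0 of them strong. Of all intronic peaks in the list 0.325% were strong, so these 2 say little. These 3 genes were picked out after their values were seen. Without the members named for EZH2, KDM1A, TOPBP1 and RNU7-20P, the strong share of the members was 1.41%.

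**Figure D4:**
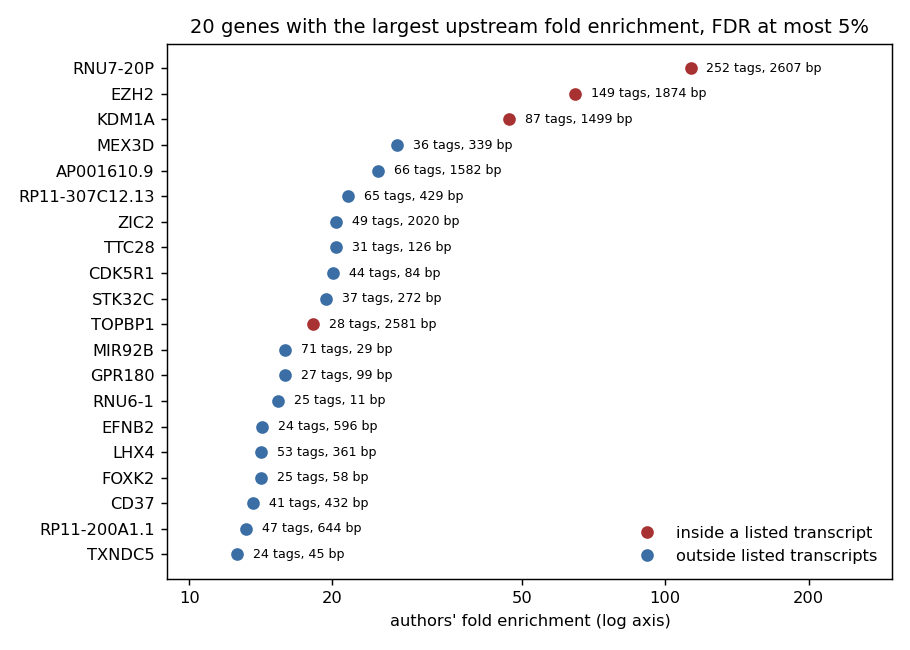
Authors' fold enrichment (log axis) of the highest upstream peak of the 20 gene names with the largest values at an FDR of at most 5%, with tags and distance of the nearest edge from the TSS (bp) beside each point. Red points lie inside a listed transcript. The 3 highest, RNU7-20P, EZH2 and KDM1A, are inside genes, and CDK5R1, TTC28 and MIR92B lie close to a start.

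Other strong members included peaks before developmental regulators and signalling genes. ZIC2, a zinc finger factor of forebrain development, had 20.35 with 49 tags (chr13:100631329-100632006), 2020 bp upstream. LHX4, a LIM homeobox gene of pituitary development, had 14.13 with 53 tags (chr1:180197903-180199060), 361 bp upstream. OSR1, which acts in kidney and heart development, had 11.32 with 20 tags and an FDR of 3.93% (chr2:19558575-19559023), 161 bp upstream. EFNB2, which encodes a ligand of Eph receptors, had 14.22 with 24 tags (chr13:107188058-107188517). MEX3D, which encodes an RNA-binding protein, had 27.37 with 36 tags (chr19:1568396-1568966), the largest value outside the 3 crowded genes. CDK5R1 had 20.05 with 44 tags (chr17:30812814-30813553), only 84 bp from its start. TTC28 had 20.31 with 31 tags (chr22:29075979-29076566), STK32C, a kinase gene, 19.43 with 37, and CD37, a leukocyte tetraspanin gene, 13.63 with 41. None of the genes in these sentences had a peak overlapping a TSS. Each of the members named here had an FDR of at most 5%.

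Strong peaks within 250 bp of the start included those of TEAD3, HSP90AA1, RAN, DGCR8, FBXL5, TXNDC5, FOXK2 and LTBP4. TEAD3, which encodes a DNA-binding partner of the Hippo effectors YAP and TAZ, had 11.24 with 92 tags (chr6:35464948-35466762), 95 bp upstream. HSP90AA1, a chaperone gene, had 12.25 with 32 tags at 102 bp. RAN, which encodes the GTPase of nuclear transport, had 8.48 with 40 tags at 4 bp. DGCR8, the partner of DROSHA in microRNA processing, had 10.57 with 24 tags at 123 bp. FBXL5, the iron-sensing subunit of a ubiquitin ligase, had 10.91 with 45 tags at 45 bp, and TXNDC5, a disulfide isomerase gene, 12.62 with 24 tags at 45 bp. FOXK2 had 14.13 with 25 tags at 58 bp. The highest TSS peak listed for FOXK2 had 3.64 and an FDR of 47.4%, at another start. No other peak lay within 20777 bp of the FOXK2 member. LTBP4, a gene of latent TGF-beta binding, had 5.74 at 18 bp upstream and 15.88 on another of its starts.

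The promoters of genes with a strong peak beside the start were richer in GC and CpG than the median promoter. Genes on chromosome 8 are left out of every set of windows, among them ATAD2 with a strong member at 141 bp (9.6-fold, FDR 0.28%). Of 27 protein-coding genes with a strong member within 250 bp and off chromosome 8, 23 had a RefSeq window. Their median GC content was 79.6% (quartiles 67.8 and 80.4), against 62.4% (52.8 and 70.4) over 15840 genes. They held 35 CpG at the median, against 17 in all promoters and 22 for genes whose peak in that band had an FDR above 40%. At least 30 CpG, a limit chosen after the values were seen, occurred in 16 of the 23 (69.6%) and in 16.1% of all windows. RAN had the most with 51, followed by DGCR8 with 48, while EIF4G3 had 3 and LTBP4 had 4, so the feature was common but not general. The window was the first listed per gene and need not be that of the start beside the peak. The LTBP4 member lay inside a transcript of its own gene, before an internal start. The quartiles of CpG were 23 and 40.5 over the 23 windows, and 33 and 42 over the 17 of genes with 1 window. Genes with a strong peak on the TSS itself had 23 CpG and 65.6% GC at the median over 338 windows, nearer to the average promoter. Members beyond 1 kb had promoters with 19 CpG at the median. The differences between these sets were not tested.

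**Figure D5:**
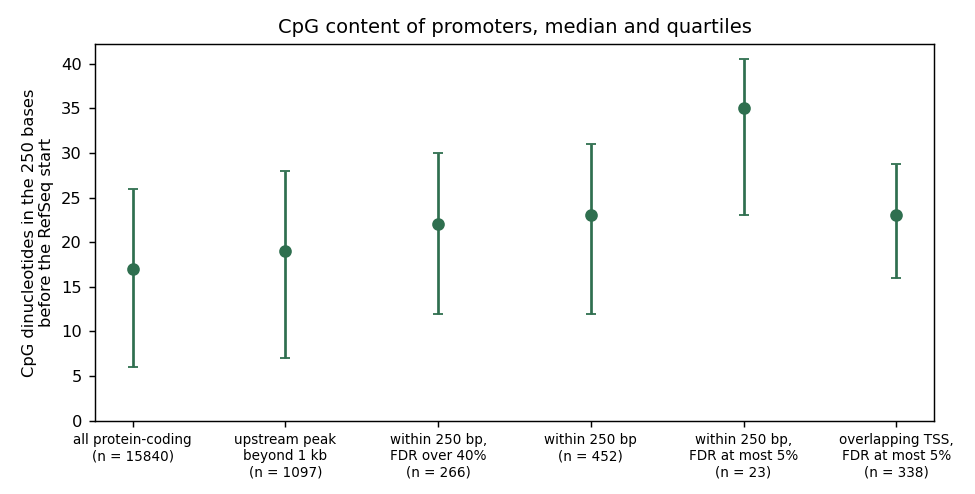
Number of CpG dinucleotides in the 250 bases before the RefSeq start, median (point) and quartiles (bars) over protein-coding genes, for 6 sets of genes by their JARID2 peak. The set with a strong upstream peak within 250 bp has a median of 35, above the 23 of genes with a strong peak overlapping a TSS.

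Motifs were searched as exact letters on both strands of the same windows. GGGCGG occurred in 20 of the 23 windows (87.0%, 66.4 to 97.2), against 56.0% of all and 66.2% of those with a weak peak (FDR above 40%) within 250 bp. The sets also differed in GC content, and its part in these shares was not tested. CCAAT, the NF-Y core, occurred in 30.4% of the 23 windows and 34.5% of all. TATAAA occurred in 4.35% and 9.24%. CACGTG, the E-box of MYC and MAX, occurred in 8.70% and 7.84%, and TTCCCGC, an E2F-type word, in 13.0% and 7.44%. For genes with a strong peak on the TSS, CACGTG and TTCCCGC each occurred in 16.6%. Matches of GGGCGG and TTCCCGC can overlap, since they share the letters CCGC on 1 strand and GCGG on the other. Peak sequences themselves were not read, since no genome of the hg19 build was used here.

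A peak on a start of the same gene was about as frequent for upstream as for downstream peaks. By the rule, a peak that reached its own TSS was not a member. Of 19319 protein-coding genes off chromosome 8, 2679 had a peak overlapping a TSS. A peak overlapping a TSS was listed for the gene of 653 members (12.9%), against 13.1% of downstream peaks, and for the same transcript in 164 (3.24%). Among strong members it was 13 of 77 (16.9%, 9.31 to 27.1). For 576 members with such a partner and a symbol of 1 gene ID, the highest TSS peak of the gene was taken. It could lie at any start of the gene. This TSS peak was higher in 329, the upstream peak in 236, and 11 were equal. Taking the highest favours the TSS side in these counts and in the medians that follow. Median fold enrichment was 5.635 upstream and 6.14 on the TSS, with 14 and 20 tags. Another listed peak lay within 1 kb of 466 members (9.22%), against 7.64% of all peaks and 9.76% of downstream promoter peaks. Inside a listed transcript of their own gene lay 974 members (19.3%), which were upstream of an internal start only. A start on the other strand within 1 kb of the far side was known for 9 members (0.178%). Of those 9, 0 were strong, too few to set beside the 1.52% of all members. Each peak was named for its nearest start, so an other-strand start nearer than that would have taken the peak. The low share is thus set in part by the naming. Only transcripts named somewhere in the peak list are known on this build, so the 0.178% and the 19.3% are both lower limits.

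Members near the TSS carried the name of a protein-coding gene more often than those farther out. Protein-coding genes took 2958 members (58.5%, 57.1 to 59.9), against 45.2% of all peaks and 81.2% of peaks overlapping a TSS. Downstream promoter peaks were much like the members, at 60.5% (59.2 to 61.9). The share was 71.2% within 250 bp and 54.6% between 2 and 3 kb, and downstream it was 70.3% and 55.0% in the same bands. Clone-named genes took 1184 members (23.4%, against 32.5% of all peaks), 12 of them strong (1.01%, 0.525 to 1.76). Small RNA names took 327 (6.47%, against 8.21% of all peaks), 8 of them strong (2.45%, 1.06 to 4.76). Both intervals held the 1.52% of all members. Y_RNA was the most frequent name with 45 members under 44 gene IDs, and snoU13 had 26. Their median fold enrichments were 5.82 and 6.18. RNU6-1, a U6 small nuclear RNA gene, had 15.36 with 25 tags (chr15:68132394-68132830), 11 bp from its start. Small RNA names have many near-identical copies in the genome, and no source used here says how the authors placed reads that match several copies, so these values are uncertain. By chromosome, members made up from 4.94% of the peaks on chromosome 4 to 16.9% on chromosome 19, leaving out Y with 8 peaks.

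MicroRNA genes took 61 members under 60 names, of which 51 names matched RefSeq, and 1 member was strong. Distances are to the start listed under the microRNA name, which need not be where its primary transcript begins. MIR92B had a peak of 15.89 with 71 tags and an FDR of 0, 1920 bp wide and 29 bp from its listed start (chr1:155163020-155164939). MIR200B, of the microRNA family that keeps epithelial identity by repressing ZEB1 and ZEB2, had 6.06 with 28 tags and an FDR of 10.42%, 2101 bp upstream (chr1:1099598-1100383). Their main mature products are given 5′ to 3′ from RefSeq on GRCh38.p14 (chr1:155195237-155195258 and chr1:1167160-1167181), with the seed, bases 2 to 8, in capitals.
hsa-miR-92b-3p: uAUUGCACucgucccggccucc
hsa-miR-200b-3p: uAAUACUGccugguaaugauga
The seeds differ. ZEB2, itself a target of miR-200b, had a member of 6.55 with 15 tags and an FDR of 46.57%.

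Gene groups were read against the 2630 of 20033 protein-coding genes (13.1%) that had an upstream peak, with a median highest fold enrichment of 5.97. Of the 20033 genes, 50 (0.25%) had a strong one. PRC2 subunits had one in 2 of 14 genes (14.3%, 1.78 to 42.8), EZH2 at 64.5 and EED, the subunit that binds the methyl mark, at 5.31 with an FDR of 36.31%. JARID2 itself had none. PRC1 subunits had 8 of 27 (29.6%, 13.8 to 50.2), with a median of 6.34 and 0 strong. SCML2 had 12.36 on 16 tags (FDR 18.04%) and MGA 6.55. Histone demethylases had 5 of 25, led by KDM1A, with KDM2B, a CpG-binding subunit of a variant PRC1, at 6.18 and KDM2A at 5.32.

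Among developmental genes, those of the HOX clusters had no upstream peak. The share of the other developmental factors had an interval that held the 13.1% of all genes. Genes of the HOX clusters, classic PRC2 targets that pattern the body axis, had 0 of 39, which allows up to 9.03% by the exact interval. Other developmental transcription factors had 13 of 114 (11.4%, 6.21 to 18.7) with a median of 6.87, and 3 of them were strong, ZIC2, LHX4 and OSR1. Those 3 are 2.63% of the list, against 0.25% of all protein-coding genes. Olfactory receptor genes, which are used in sensory neurons, had 32 of 390 (8.21%, 5.68 to 11.4), with OR4K17 highest at 10.6 (FDR 13.07%). Keratin-associated protein genes had 9 of 94 and histone genes 6 of 76, with 0 strong in either. Whether any of these lists differs from the rest was not tested.

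Genes of breast cell identity and signalling had mostly weak members, like the members as a whole. Mesenchymal genes had 7 of 35, among them ZEB2, which encodes a repressor of E-cadherin. Epithelial genes had 9 of 39, led by ELF3 at 7.28 and the junction gene CGN at 7.21, and luminal and basal breast genes 6 of 38, led by the cadherin gene CDH3 at 7.95 (FDR 19.46%) and KRT8 at 6.67. TGF-beta and BMP genes had 9 of 49, with the receptor genes ACVR2B at 8.83 and ACVR1B at 8.08. WNT genes had 8 of 57, with the ligand gene WNT4 at 7.28 and the receptor gene FZD2 at 7.13, and Notch genes 3 of 38, led by DTX4 at 7.06. Hippo genes had 8 of 29 (27.6%, 12.7 to 47.2), of which TEAD3 alone was strong. Apart from TEAD3, 0 members of these lists were strong. Of all protein-coding genes 0.25% had a strong one, so 0 in lists of 29 to 57 genes says little.

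Among growth and maintenance lists, only DNA repair and numbered zinc finger genes had strong members. Their shares of genes with one were 1.79% and 0.589%, against 0.25% of all protein-coding genes. At so low a share, 0 strong in a short list says little. Hypoxia response genes had 7 of 34, led by EPAS1 at 7.12 (FDR 48.07%). Cell cycle and replication genes had 5 of 64 (7.81%, 2.59 to 17.3), led by CCND2, the cyclin D2 gene, at 10.5 (FDR 15.45%). DNA repair genes had 10 of 56, where TOPBP1 alone was strong and BRIP1, a helicase gene, followed at 7.53. Tumour suppressor genes had 10 of 38 (26.3%, 13.4 to 43.1), with DLC1 at 10.32 (FDR 8.80%) and PTCH1, the Hedgehog receptor gene, at 7.06, and 0 strong. Cytosolic ribosomal protein genes had 5 of 85 (5.88%, 1.94 to 13.2), led by RPL26 at 8.19 (FDR 12.51%), and mitochondrial ones 9 of 77, led by MRPS27 at 8.4 (FDR 7.39%). Numbered zinc finger genes had 54 of 509 (10.6%), 3 of them strong, with ZNF496 at 10.6 (FDR 27.97%) and ZNF800 at 8.24 (FDR 3.25%).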

How the data were processed

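MDA-MB-231 chromatin was measured by ChIP-seq in 1 JARID2 library and 1 input library. The submitters' processing notes name hg19, ChIPseeker, MACS2, MACS, Bowtie 0.12.8 and bcl2fastq, with no roles. Not given in the sources used here are alignment settings, the treatment of reads with several matches, duplicate removal, calling thresholds and the use of the input. Per the file headers, the authors deposited for each peak a count of tags, a fold enrichment (a linear ratio) and an FDR in percent. A further deposited score has an unreadable header. From its place and its minimum of 30 it was read as 10 times −log10 p, and it enters 1 alternative only. Library depth is unknown, and the precision of a peak is that of its tags.

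Members followed the listed annotation and distance, with no filter on low values. The nearest edge, summit and strand were recomputed from the listed gene coordinates with Python 3.11.15, numpy 2.4.6, pandas 2.3.3 and scipy 1.17.1, and figures were drawn with matplotlib 3.10.9. Shares have exact Clopper-Pearson intervals at 95% and tags exact Poisson intervals. The functions were tested on simulated data.

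Symbols were matched to 20033 protein-coding genes of RefSeq GRCh38.p14, and 2632 of 4583 member symbols matched. Promoter windows were the first listed per gene, 15840 genes in all, with chromosome 8 left out. Genes with 1 window alone covered under 80% of each set, so the first listed window was adopted after those values were seen. The motifs, the 6 printed windows and the nearest-edge distances were also chosen after the data were seen.

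Members, the 22 gene lists and the FDR limit were chosen with earlier results of these data known. Named genes were the 20 names of largest fold enrichment at an FDR of at most 5%, up to 5 per kb of distance, up to 3 per list and every PRC2 gene, the 5 names with most members, the 5 members with most tags, the 5 highest with and without a peak overlapping a TSS and with an other-strand start, and the 3 widest. Some of them are not reported here. Other genes named were chosen after their values were seen. Alternatives were other FDR limits, fold and score limits, tag minimums, distances, reference points and ways to pair peaks.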

Additional observations from a re-analysis of the deposited data

How the results depend on the processing

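Each value below is set beside the one reported, and unless an alternative narrows or widens the set by its own construction, the cause was not tested. The share of strong members (1.52%) was 0.732% at an FDR of at most 1%, 2.59% at 10%, 13.9% for a score (10 times −log10 p) of at least 50 and 2.57% within 1 kb. It lay between 1.33% and 1.76% with a fold enrichment of at least 10, protein-coding genes only, isolated members, 3 kb by the nearest edge, or without the highest loci. Median fold enrichment was 10.57 at an FDR of at most 5%. Median tags were 16 with at least 12 tags, 33 at that FDR and 14 within 1 kb, and median widths 593, 797 and 525 bp. The share within 1 kb (47.0%) was 36.7% by the summit, 79.2% at an FDR of at most 5%, 50.5% for protein-coding genes, 35.2% by the listed distance and 43.9% with 3 kb by the nearest edge. The upstream share (50.1%) was 56.2% at an FDR of at most 5% and 49.1% by the summit with TSS-overlapping peaks included. The share with a TSS peak at the gene (12.9%) was 3.24% by transcript, 6.92% by position within 5 kb, 16.9% at an FDR of at most 5%, and 11.6% both within 1 kb and without symbols of several gene IDs. The protein-coding share (58.5%) was 67.5% at an FDR of at most 5% and 62.8% within 1 kb. The share with an other-strand start (0.178%) was 0.0198% within 500 bp, 0.910% within 3 kb and 0 at an FDR of at most 5%. Genes with an upstream peak (2630) numbered 50 at an FDR of at most 5%, 88 at 10%, 1417 within 1 kb and 4943 with TSS-overlapping peaks added. The median of 35 CpG was 35 with single-window genes and 32 at an FDR of at most 10%. No paired analysis was possible because each group held 1 library. The median of 13 tags per member has a Poisson interval of 6.92 to 22.2, which limits the precision of single peaks.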

Other observations

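Some members with many tags or great width had low fold enrichment. AC018696.4, a clone-named gene on chromosome 2, had 98 tags but a fold enrichment of 3.83 and an FDR of 16.29%. TGM2, which encodes the tissue transglutaminase, had the widest member at 2506 bp, 55 bp from its start, with 81 tags, a fold enrichment of 3.64 and an FDR of 29.92%. SLC37A2, a sugar-phosphate transporter gene, had one of 2215 bp with 3.64, and MIR3164 one of 2030 bp with 6.37. AMPD3, PPFIBP2, SSBP3 and USP3 had 4 members each, named for 4, 3, 4 and 3 transcripts. Their median fold enrichments were 5.28, 6.3, 6.875 and 7.53, and 0 of these members were strong.

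The upstream share of the list varied less with strength than that of peaks on a TSS. Upstream peaks made up 7.91% (4.90 to 11.9) of the 253 peaks with an FDR of 0, 9.81% of those up to 5% and 11.2% (8.55 to 14.4) of those up to 10%. The share was 9.07% up to 20%, 7.60% up to 40% and 7.40% (7.17 to 7.64) above that. The share of peaks overlapping a TSS went from 65.6% at an FDR of 0 to 3.44% above 40%. Members within 250 bp were 6 of 20 at an FDR of 0, 28 of 57 up to 5% and 469 of 3491 above 40%. These shares were not tested.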
